A study of Oryza sativa with 4 samples.

Results

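The genes described here are the class B and class C heat stress factors of rice, a family of transcription factors. They were chosen by name, with earlier results of these data known. The 10 genes are HSFB1, HSFB2A, HSFB2B, HSFB2C, HSFB4B, HSFB4C, HSFC1A, HSFC1B, HSFC2A and HSFC2B. The array annotation gave 13 probe sets to 8 of them, each probe set to 1 gene alone, out of 57381 probe sets and 17905 annotated genes in all. HSFB4C and HSFC2B had no such probe set and were not analysed here.

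RNA of panicle primordia, the young inflorescence, was measured on 4 Affymetrix arrays. The labels number the stage as 0 and place both cultivars in the Indica Group of rice. The arrays fall into 2 groups, the cultivar Pusa 1266 and the cultivar Pusa Basmati 1, with 2 biological replicates each, and no treatment is named for either. The grain number labels disagree: the titles call both cultivars low, while the characteristics give Pusa 1266 a high and Pusa Basmati 1 a low number of grains per panicle.

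Heat stress factors bind short repeated elements in the promoters of heat shock genes. Class A members carry activation motifs and switch on the genes of chaperones, the proteins that keep other proteins folded. Class B members lack these motifs, and several act as repressors in Arabidopsis or as partners of class A factors in tomato. Class C members also lack the activation motifs of class A, and their subclass C2 is found in monocots such as rice.

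The array signals were not on 1 level. Pusa 1266 arrays had a median signal of 6.8 and 7.8, against 11.6 and 11.3 on the Pusa Basmati 1 arrays. The log2 signals, with 16 added before the logarithm, were therefore quantile normalized, and a difference is given on this log2 scale as Pusa 1266 minus Pusa Basmati 1. Of all 15183 genes tested, the median difference was 0.07 after this normalization. The 3' to 5' signal ratio of control transcripts, a sign of RNA integrity, was higher on both Pusa 1266 arrays for all 5 controls, and for GAPDH it was 20.3 and 18.5 in Pusa 1266 against 7.55 and 8.50 in Pusa Basmati 1. The part of this ratio in the differences below was not tested. Of the tissue markers, 9 of 10 young panicle genes passed the filter on low signals. The meristem gene OSH1 had deposited signals of 2211 and 2279 in Pusa 1266, against 2032 and 2094 in Pusa Basmati 1. After normalization the OSH1 difference was 0.72 ± 0.06 (SE), and RFL and LAX1, given below, differed more. FZP, which sets spikelet identity, was at 5.5 or less on every array.

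**Figure D1:**
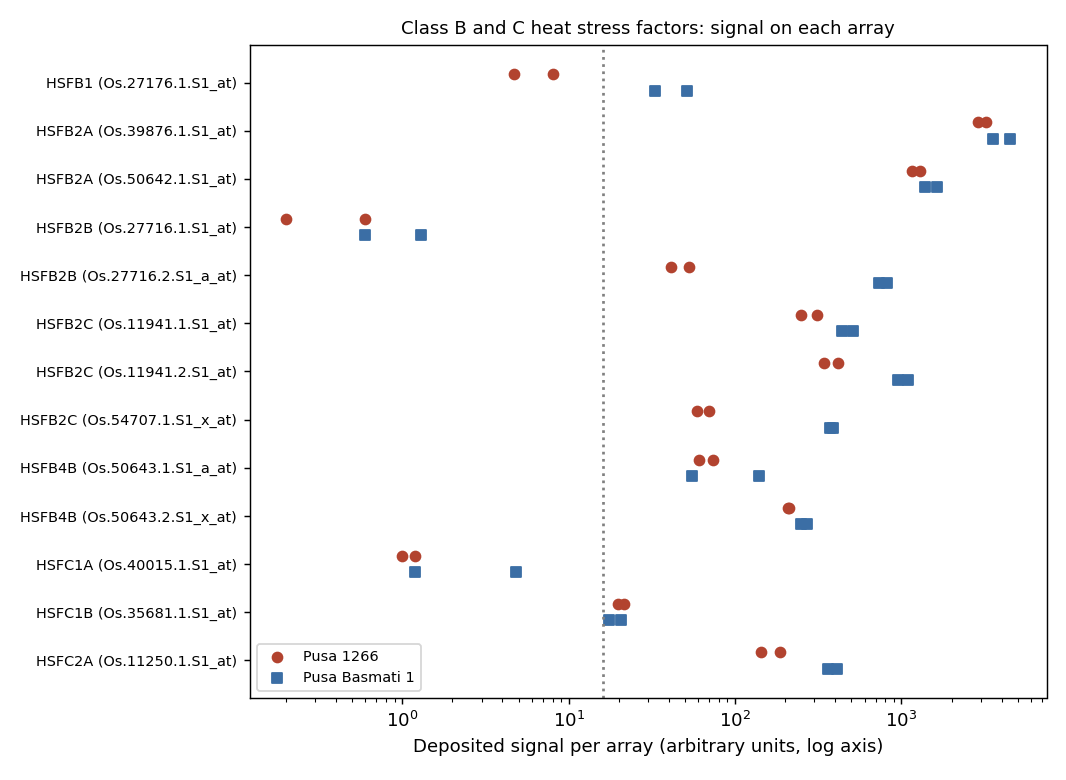
Deposited signal (arbitrary units, log axis) of the 13 probe sets on each array, with Pusa 1266 as circles and Pusa Basmati 1 as squares; the dotted line marks the added constant of 16. For HSFB2B the second probe set reads 41.2 and 52.9 in Pusa 1266 against 735.4 and 816.6 in Pusa Basmati 1, while the first stays at 1.3 or less on all 4 arrays.

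Among the class B and C factors, HSFB2B was 7.52-fold lower in Pusa 1266 (n = 2 arrays per cultivar throughout). HSFB1, HSFB2C and HSFC2A were also lower, by smaller amounts, while HSFB4B and HSFC1B were higher on the normalized scale, by 1.45-fold and 1.41-fold, but not with the deposited scaling. HSFB2A did not pass. Where a gene had several probe sets, the brightest on average across the 4 arrays stood for it. A gene passed when its adjusted p in limma (Benjamini-Hochberg over 30029 tested probe sets) was below 0.05. Of the 7 genes that could be tested 4 were lower, set against 26.2% of all tested genes, and 2 were higher, against 34.8%. On the quantile scale with a constant of 16, HSFB2B alone of the 7 was lower by 2-fold or more, against 7.24% of all tested genes, and HSFB1 came next at 1.98-fold. The number at 2-fold or more was 4 with the deposited scaling, 3 with median centring, and 2 with a constant of 1. The share of all tested genes at 2-fold or more was not worked out for these settings. The counts of 4 and 3 thus have no matching share, and the median of all genes was itself −0.62 and −0.38 there. HSFB1 stood at −1.24 without the first Pusa 1266 replicate and at −1.14 without the second Pusa Basmati 1 replicate. By class, 3 of 5 tested class B genes were lower and 1 was higher, and of 2 tested class C genes 1 was lower and 1 higher. The normalized values of the cultivars did not overlap for 6 of the 7, against 81.9% of all tested genes, so a separation of the cultivars was common across the array as well.

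HSFB2B (LOC4346229, chromosome 8) has been described in rice as a negative regulator of drought and salt tolerance. Its probe set Os.27716.2.S1_a_at had signals of 41.2 and 52.9 in Pusa 1266, against 735.4 and 816.6 in Pusa Basmati 1. Every Pusa 1266 value lay below every Pusa Basmati 1 value, with a wide gap. The normalized log2 level was 6.33 ± 0.0731 in Pusa 1266 and 9.24 ± 0.0113 in Pusa Basmati 1 (SD, n = 2 each). The difference was −2.91 ± 0.08 (SE, limma adjusted p = 1.29e-07), with a 95% interval of −3.10 to −2.72, which is 7.52-fold lower in Pusa 1266. The size depends on the added constant of 16. With a constant of 1 the difference was −3.18 and with 64 it was −2.34, both outside that interval. With the constant of 16, 111 of the 15183 tested genes lay further down, or 0.731%. The other probe set of the gene, Os.27716.1.S1_at, had signals of 0.2 and 0.6 in Pusa 1266, against 1.3 and 0.6 in Pusa Basmati 1. It was above the array median on no array, was not tested, and so neither repeats nor contradicts the difference.

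HSFB2C (LOC4347637, chromosome 9), of the same subclass, had 3 probe sets that gave different answers. The brightest, Os.11941.2.S1_at, had signals of 343.2 and 416.6 in Pusa 1266 against 960.0 and 1102.7 in Pusa Basmati 1. It fell by 0.63 ± 0.06 on the log2 scale (SE, limma adjusted p = 7.74e-05), or 1.55-fold. The second, Os.54707.1.S1_x_at, of a kind whose probes can match other transcripts, read 58.7 and 69.3 in Pusa 1266 against 372.6 and 388.3 in Pusa Basmati 1. This probe set fell by 1.52 ± 0.09 (adjusted p = 5.54e-06). The third, Os.11941.1.S1_at, read 250.3 and 313.0 in Pusa 1266 against 439.0 and 511.7 in Pusa Basmati 1, and its difference of 0.09 ± 0.07 did not pass (interval −0.08 to 0.26). All 3 were lower in Pusa 1266 in the deposited signals, whereas after normalization the first and second of these were lower and the third was not. The probe sets lay 1.61 apart in log2 difference. Among the 2434 genes with several tested probe sets 7.19% had a spread as large, and the median spread was 0.57.

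HSFB2A (LOC4336701, chromosome 4), whose Arabidopsis counterpart acts in the female gametophyte, had bright probe sets in both cultivars. Os.39876.1.S1_at read 2888 and 3203 in Pusa 1266, against 3551 and 4510 in Pusa Basmati 1. After normalization the cultivars overlapped, and the difference was 0.00 ± 0.05 (interval −0.13 to 0.13). Its other probe set, Os.50642.1.S1_at, read 1155 and 1286 in Pusa 1266, against 1390 and 1641 in Pusa Basmati 1. That probe set rose by 0.40 ± 0.05 (limma adjusted p = 0.000346) after normalization, although its deposited signals were lower in Pusa 1266. The brighter probe set also passed, at 0.41 (adjusted p = 0.00107), when the arrays were brought to 1 trimmed mean in place of quantile normalization.

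HSFB1 (LOC4347259, chromosome 9), whose tomato and Arabidopsis counterparts are induced by heat, was dim. Its probe set Os.27176.1.S1_at read 8.1 and 4.7 in Pusa 1266 against 51.2 and 33.1 in Pusa Basmati 1. It was above the array median on 2 Pusa Basmati 1 arrays but on 1 Pusa 1266 array, and the filter required 2 arrays. The gene thus met the filter only through Pusa Basmati 1, where it was higher. Both Pusa 1266 signals lay below the added constant of 16, so the size of the difference depends on that constant. The gene fell by 0.99 ± 0.22 (SE, limma adjusted p = 0.00605), by 1.87 with a constant of 1 and by 0.42 with 64. It passed under each of these constants, but not without a filter on low signals (limma adjusted p = 0.0553). Without the first Pusa Basmati 1 replicate it stood at −0.71 and did not pass (limma adjusted p = 0.0607).

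HSFB4B (LOC4344063, chromosome 7) belongs to the subclass whose Arabidopsis member, SCHIZORIZA, controls asymmetric cell division in the root. Probe set Os.50643.2.S1_x_at, also of the kind that can match other transcripts, read 206.7 and 211.6 in Pusa 1266, against 250.5 and 272.4 in Pusa Basmati 1. These deposited signals were lower in Pusa 1266, yet by less than the arrays as a whole. The normalized difference was therefore positive, at 0.54 ± 0.09 (limma adjusted p = 0.00122). With the deposited scaling it was −0.30 and did not pass, which is 0.32 above the median of all genes under that scaling. The other probe set, Os.50643.1.S1_a_at, read 61.0 and 74.1 in Pusa 1266, against 55.1 and 139.7 in Pusa Basmati 1. Its Pusa Basmati 1 replicates differed more from each other than the cultivars did, and its difference of 0.41 ± 0.26 did not pass.

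HSFC2A (LOC4328809, chromosome 2), of the monocot subclass, read 143.8 and 187.5 in Pusa 1266 against 360.0 and 412.5 in Pusa Basmati 1 with probe set Os.11250.1.S1_at. It fell by 0.33 ± 0.08 (SE, limma adjusted p = 0.0117), with an interval of −0.52 to −0.13. With the deposited scaling it stood at −1.15, or −0.54 relative to the median of all genes. The call was lost without the first Pusa 1266 replicate (−0.25, adjusted p = 0.0585) and without the second Pusa Basmati 1 replicate (−0.31, adjusted p = 0.0646).

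HSFC1B (LOC4324158, chromosome 1) has been tied to salt tolerance in rice. Probe set Os.35681.1.S1_at read 19.8 and 21.5 in Pusa 1266, against 20.5 and 17.6 in Pusa Basmati 1, all close to the added constant. The deposited signals overlapped, while the normalized values did not. The rise of 0.50 ± 0.16 (SE, limma adjusted p = 0.0290) was 0.85 with a constant of 1 and 0.22 with 64. It did not pass when any 1 of the 4 arrays was left out, with differences from 0.40 to 0.55. HSFC1A (LOC4326685, chromosome 1) had signals of 1.0 and 1.2 in Pusa 1266, against 1.2 and 4.8 in Pusa Basmati 1 with Os.40015.1.S1_at, below every array median, and no difference is given for it.

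**Figure D2:**
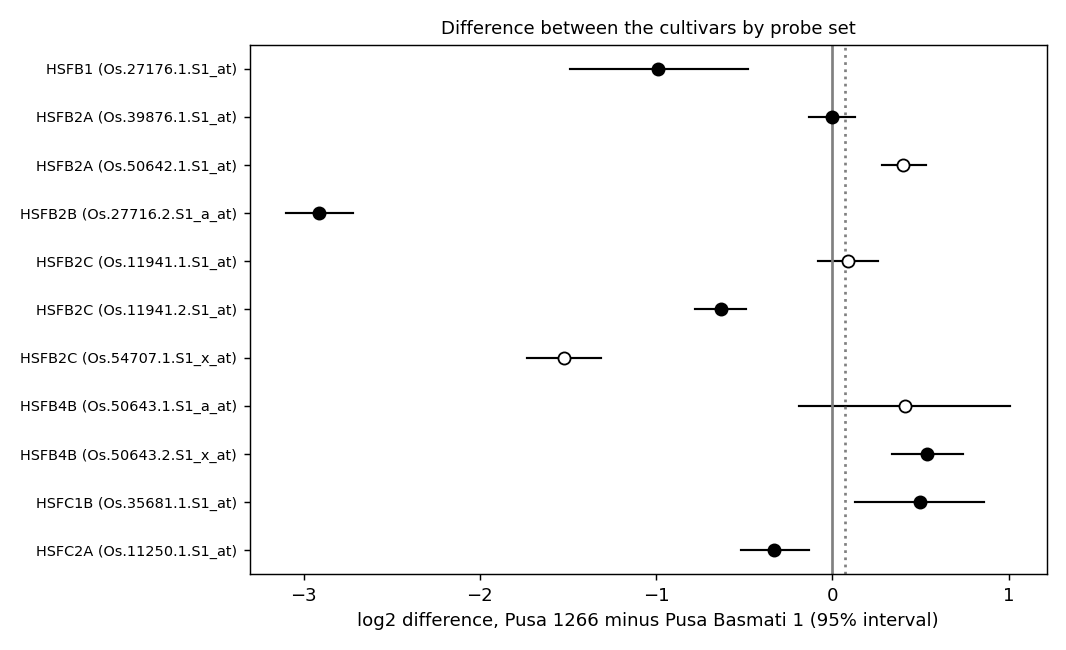
Log2 difference, Pusa 1266 minus Pusa Basmati 1, of the 11 tested probe sets with 95% intervals; filled points represent the gene and open points are its other probe sets, and the dotted line is the median of all genes at 0.07. HSFB2B stands apart at −2.91, and the 3 probe sets of HSFB2C run from −1.52 to 0.09.

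The signs of HSFB4B and HSFB2A changed with how the arrays were brought to 1 level. The median difference of all genes was −0.62 with the deposited scaling, −0.38 with each array centred on its median, 0.02 with cyclic loess and 0.07 with trimmed mean scaling. HSFB2B, HSFB2C, HSFB1 and HSFC2A were lower and passed under all 5 scalings. Of 30029 tested probe sets, 17956 passed as lower under the deposited scaling and 13660 under median centring, against 7574 after quantile normalization. A lower call under the deposited scaling or median centring was thus common across the array. Relative to the median of all genes, the deposited scaling put HSFB2B at −3.04, HSFB2C at −0.79, HSFB1 at −0.75 and HSFC2A at −0.54. HSFB2B ran from −3.66 to −2.91 and HSFB2C from −1.41 to −0.62. HSFB1 ran from −1.36 to −0.92 and HSFC2A from −1.15 to −0.33. HSFB4B and HSFC1B passed as higher with quantile, cyclic loess and trimmed mean scaling only. With the deposited scaling HSFC1B stood at 0.07, which is 0.68 above the median of all genes. With 4 arrays an exact two-sided permutation test of 1 gene cannot go below p = 0.333, so each call depends on limma's pooling of variance over the whole array.

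**Figure D3:**
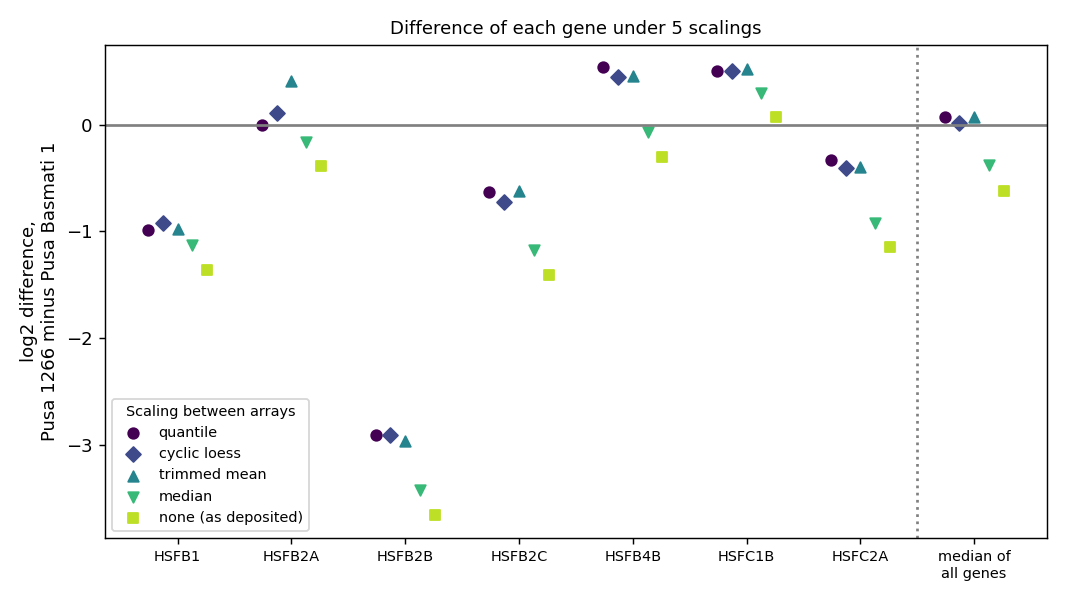
Log2 difference, Pusa 1266 minus Pusa Basmati 1, of the 7 tested genes and, at the right, the median of all tested genes under 5 scalings between arrays. HSFB2B stays between −3.66 and −2.91, whereas HSFB4B runs from −0.30 to 0.54 as the median of all genes runs from −0.62 to 0.07.

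The rest of the heat stress pathway was listed by gene name, also with earlier results of these data known. The counts below therefore describe these lists and are not independent support. Of 12 tested class A factors 9 were lower in Pusa 1266, 5 of them by 2-fold or more, and none higher in limma, also at an unadjusted p under 0.05, with a median of −0.63 against 0.07 for all genes. HSFA2C, of the A2 subclass known for strong induction by heat, had signals of 275.3 and 344.7 in Pusa 1266 against 2540 and 2694 in Pusa Basmati 1, and fell by 2.32 ± 0.07 (SE). HSFA3, which acts downstream of DREB2A in Arabidopsis, read 149.5 and 178.6 in Pusa 1266 against 1223 and 1333 in Pusa Basmati 1 and fell by 2.06 ± 0.06. HSFB2B lay below both in log2 difference.

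Among the chaperones, 18 of 19 tested small heat shock protein genes were lower, 12 by 2-fold or more, with a median of −1.53. The number lower was 13 with trimmed mean scaling, where 1 was higher. HSP18.1 read 106.9 and 83.4 in Pusa 1266 against 3735 and 4339 in Pusa Basmati 1 and fell by 4.59 ± 0.15, and HSP21.9 fell by 2.96 ± 0.09. The HSP18.1 probe set, Os.37773.1.S1_x_at, is of the kind that can match other transcripts. Both genes had 2 probe sets, of which only the one that stood for the gene is given. All 3 genes of the HSP100 family, which takes apart protein aggregates, were lower, with CLPB-M at −1.92 and CLPB-C at −1.78. Of 3 HSP90 genes HSP81-3 rose by 0.19 ± 0.04 and the other two did not pass. HSP81-3 did not pass without a filter, without a trend in eBayes, with the mean of its probe sets or without the second Pusa 1266 replicate. That family flipped with the scaling: all 3 passed as higher with trimmed mean scaling and 2 passed as lower with the deposited scaling. BIP1, the single tested HSP70-type gene, stood at 0.02 and did not pass, but was higher with trimmed mean scaling and lower with the deposited scaling. Of 5 tested DNAJ cochaperone genes DJC27 and DJB6 fell, at −0.99 and −0.65, and DJC79 and DJA6 rose, at 0.86 and 0.63. Under the deposited scaling DJC79 was at 0.03 and DJA6 at −0.12. No gene of the cofactor MBF1 was found by name.

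**Figure D4:**
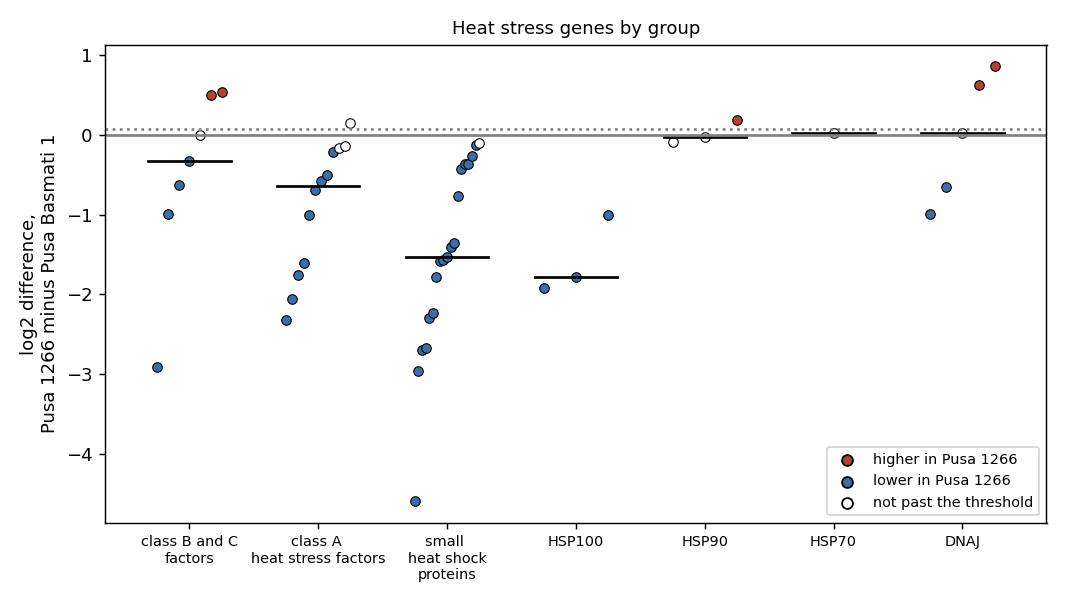
Log2 difference, Pusa 1266 minus Pusa Basmati 1, of each tested gene by group, with a bar at the group median, filled points past an adjusted p of 0.05 and the dotted line at the median of all genes, 0.07. The medians are −0.33 for class B and C factors, −0.63 for class A factors, −1.53 for small heat shock proteins and −1.78 for HSP100.

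Markers of green leaf moved with the cultivars as well. All 3 tested genes of that list, CAB2R, RBCS and RCA, were lower in Pusa 1266, at −1.19, −1.26 and −1.70. Their summed deposited signal, before normalization, was 831.7 and 823.2 in Pusa 1266 against 2914 and 3422 in Pusa Basmati 1. Most of it came from CAB2R, at 784.7 and 781.7 in Pusa 1266 against 2641 and 3091 in Pusa Basmati 1. RCA read 15.6 and 18.2 in Pusa 1266, close to the added constant of 16. The part of these leaf genes in the differences of the heat stress factors was not tested. In whole primordia fewer cells of a type and less RNA per cell cannot be told apart. Of 7 later floral organ genes MADS2, MADS4 and MADS58 were higher, but under the deposited scaling their differences were −0.50, −0.36 and −0.50. That list had summed deposited signals of 1925 and 2120 in Pusa 1266, against 2807 and 3304 in Pusa Basmati 1. Of the 9 tested young panicle genes 6 were higher, led by RFL at 2.62 and LAX1 at 1.57, and MADS34 and MADS55 were lower, at −0.83 and −0.40. With the deposited scaling 3 of those 6, MADS15, MADS18 and MADS22, lay below 0. In the endosperm and pollen list GLUA1 was at 6.5 or less on every array and Wx did not pass.

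The genes with the pattern most like that of the lowest and the highest member were sought among 75 tested genes with a symbol of their own, by Euclidean distance between the 4 centred log2 values. Among these 75 none was close to HSFB2B: LEA19 was 1.083 away, with a difference of −1.83, CPK13 1.170 away and HSFA2D 1.310 away. Genes listed in the reference under a locus number were not searched, HSP21.9 among them. The normalized log2 values of HSP21.9 were 6.13 and 6.24 in Pusa 1266 against 9.14 and 9.16 in Pusa Basmati 1. Those of HSFB2B were 6.27 and 6.38 in Pusa 1266 against 9.24 and 9.23 in Pusa Basmati 1. For HSFB4B the nearest were CWZF3 at 0.096, VIPP1 at 0.105 and KIN4A at 0.189. These distances rest on 4 arrays, and they mainly reflect the size of the difference between the cultivars.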

How the data were processed

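The authors deposited a signal intensity on a linear scale for every probe set of every array. The submitters' processing notes name GCOS 1.2, and biotin-labelled cRNA was hybridized per the labels' protocols. How background was treated and whether arrays were scaled is not stated there. Arrays give no counts, and their number limits the precision.

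From these values, log2(signal + 16) was quantile normalized and fitted in limma 3.58.1 (R 4.3.3) by lmFit and eBayes with trend. Leaving out 123 control probe sets, those exceeding the array median on 2 or more of the 4 arrays were tested, which were 30029, with Benjamini-Hochberg adjustment. The script was tested on simulated data in which few probe sets changed and the arrays did not differ in level. These arrays do differ in level, so that test does not bear on their normalization. Probe sets were joined to genes by gene identifier, and names and chromosomes come from the reference annotation ASM3414082v1; no sequence or coordinate is given. Samples were grouped by the cultivar in their titles. Replicate numbers were not treated as pairs, since replicate deviations correlated with r = 0.0181 across probe sets. The members and lists were chosen with earlier results of these data known. By rule, the genes named outside the members are the 2 lowest and 2 highest called genes of each list and the 3 nearest in pattern to the lowest and highest member. Tissue markers are named as well, and BIP1 and the neighbouring genes were named after their values were seen. Python 3.11.15 with pandas 2.3.3 handled the tables.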

Additional observations from a re-analysis of the deposited data

How the results depend on the processing

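HSFB2B, HSFB2C and HSFB4B passed in limma under every filter, constant, variance model and left-out array tried, and HSFB2B and HSFB2C also under every scaling. When 1 array at a time was left out, the differences ran from −2.97 to −2.87 for HSFB2B, −0.67 to −0.59 for HSFB2C, 0.46 to 0.61 for HSFB4B, −1.24 to −0.71 for HSFB1, −0.07 to 0.07 for HSFB2A, −0.40 to −0.25 for HSFC2A and 0.40 to 0.55 for HSFC1B. The single array left in a cultivar is then assumed to vary like those of the other cultivar. The number of factors lower then ran from 3 to 4, and 1 factor was higher without any of the arrays. The deposited scaling and median centring turned HSFB4B to −0.30 and −0.07, its other probe set, which ran from −0.05 to 0.84 with 1 array left out, to −0.34 and −0.10, HSFB2A to −0.39 and −0.16, its other probe set to −0.31 and −0.07, and the third HSFB2C probe set to −0.73 and −0.49. HSFC1B became 0.07 and 0.30 and did not pass. Under these scalings 0 factors were higher (also 0 at an unadjusted p under 0.05), 0 genes of the pathway lists were higher in limma against 3, and 1646 and 2906 probe sets were higher, with 17956 and 13660 lower, against 8472 and 7574. Trimmed mean scaling, chosen after seeing the data, gave 0.41 for HSFB2A, which then passed, and 7 pathway genes higher. With the mean of all probe sets of a gene HSFB2A passed at 0.20, so that 3 factors were higher, as with trimmed mean scaling. Without a filter HSFB1 (−0.99) and HSFC1B (0.50) did not pass, and 1 factor was higher. With a filter at the 75th percentile HSFB1 and HSFC1B were not tested, and 1 factor was higher. A fit with the replicate number as a block gave −2.91 for HSFB2B and 2 factors higher and 4 lower, and it changed no call on these factors. The causes of these changes were not tested, apart from the 2 genes that the stricter filter left out. Signals near or below 16 limit what can be said of HSFB1, HSFC1A and HSFC1B.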

Other observations

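The tested genes nearest to each factor in the reference gene order were looked up after the differences of the factors were seen. Of these 20 genes, 1 on each side of all 10 factors, 4 were higher in Pusa 1266, against 34.8% of all tested genes, 6 were lower, against 26.2%, and 10 did not pass in limma. Both neighbours of HSFB2C (−0.63) were lower like it. LOC4347635, 3 genes away, stood at −0.53 (limma adjusted p = 0.000227) and LOC4347638, 1 gene away, at −1.05 (adjusted p = 0.00819). Beside HSFB2B (−2.91) LOC4346228 was lower, at −0.41 (adjusted p = 0.00578), and LOC4346230 stood at −0.07. On the side of HSFC1B (0.50) LOC4324153, 3 genes away, was higher, at 0.43, and LOC4324159, 1 gene away, stood at 0.15. On the side of HSFC2A (−0.33) LOC4328807, 3 genes away, was higher, at 3.81 (adjusted p = 2.96e-07), and LOC4328810 stood at −0.33 and did not pass. Of HSFB4C, which had no probe set, the neighbour LOC4347252 was lower, at −1.16.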
